A study of Mus musculus with 32 samples.

Results

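The genes described here are the subunits of the proteasome and the proteins named with them, taken as every gene of the deposited count table whose symbol begins with Psma, Psmb, Psmc, Psmd, Psme, Psmf or Psmg followed by a digit. The rule found 50 of the 24421 genes in the table, the inducible subunits Psmb8, Psmb9 and Psmb10 among them, and all 50 passed the filter on low counts that left 14154 genes to test. RNA was measured by RNA-seq in 8 cell fractions sorted from the bone marrow of female C57BL/6 mice aged 10 weeks (young) or 20 months (aged), with 2 libraries for each fraction and age and 32 libraries in all. No treatment, transgene or mutant allele is named for any group. All fractions lacked lineage markers (Lin-), and all but the last named carried c-kit. Hematopoietic stem cells (HSCs) were IL-7Rα-, Sca-1+, CD34-, CD150+, CD48- and Flt3-. The multipotent progenitors were CD34+ Sca-1+ cells that were CD150+ CD48- Flt3- (MPP1), CD150+ CD48+ Flt3- (MPP2), CD150- CD48+ Flt3- (MPP3) or CD150- CD48+ Flt3+ (MPP4). Granulocyte-macrophage progenitors (GMPs) were Sca-1- FcgR+ CD34+, megakaryocyte-erythrocyte progenitors (MEPs) were Sca-1- FcgR- CD34-, and common lymphoid progenitors (CLPs) were IL-7Rα+ with low Sca-1 and low c-kit. Each age was sorted in duplicate from pooled marrow, so p-values measure the spread between these duplicates, and the 8 fractions of an age may come from the same animals.

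The proteasome degrades proteins that carry ubiquitin. Its 20S core is a barrel of alpha and beta subunits whose proteolytic sites belong to Psmb5, Psmb6 and Psmb7, and its 19S regulatory particle recognizes, unfolds and feeds in the substrate. In hematopoietic cells, and after interferon, the proteolytic subunits can be replaced by Psmb8, Psmb9 and Psmb10, which form the immunoproteasome and favor the production of peptides for MHC class I. Hematopoietic stem cells are known for a low rate of protein synthesis and a strong dependence on protein quality control.

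Libraries held between 11237384 and 17723245 counts, and the TMM factors that scale library totals to each other ran from 0.807 to 1.11. Levels are given as CPM, counts scaled to a common library total by TMM, in the order replicate 1 and replicate 2, and each gene was compared with itself unless a value is stated per kilobase. Most antigens of the sort followed the labels at the RNA level, for example Fcgr3 between 473 and 497 CPM in GMPs and at most 23.6 CPM elsewhere, Il7r between 157 and 201 CPM in CLPs, and Cd34 below 0.7 CPM in MEPs against 450 CPM or more in GMPs. Transcripts of antigens that a fraction was sorted without were not always absent, with Cd34 between 173 and 206 CPM in HSCs and Flt3 between 167 and 297 CPM in MPP3. Transcripts of mature cells stood apart by age in several fractions. The 5 neutrophil genes were higher in aged HSCs, at 54.5 and 58.7 CPM in young and 271 and 299.8 CPM in aged libraries, and lower with age in MPP2, MPP3, GMPs and CLPs. They summed to 1071 and 1076 CPM in young and 173 and 235 in aged MPP3. Their sums were 536 and 543 in young and 145 and 80.6 in aged CLPs, and 275 and 274 in young and 87.1 and 119 in aged GMPs. The 4 B cell genes summed to 1432 and 1477 CPM in young CLPs and 594 and 605 in aged CLPs, and to 83.6 and 74.9 in young MEPs with no count in aged MEPs, where 3 counts would be between 0.169 and 0.267 CPM. The 4 erythroid genes summed to 363 and 344 CPM in young MEPs and 181 and 188 in aged MEPs. Where these shifts accompany a result on the proteasome, their part in it was not tested, and in bulk RNA fewer cells of a type cannot be told apart from less RNA per cell.

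The first comparison asked how the proteasome genes of each fraction differed between aged and young mice. In multipotent progenitors they were broadly upregulated with age, with 11, 22, 31 and 37 of the 50 genes higher from MPP1 to MPP4 and none lower. Aged HSCs showed 3 higher genes and none lower. In GMPs the direction was the opposite, with 15 genes lower and 2 higher, whereas MEPs had 9 higher and 1 lower and CLPs had 3 in each direction. A gene was called at an adjusted p under 0.01 in edgeR's quasi-likelihood test, two-sided, with Benjamini-Hochberg adjustment over all 14154 genes.

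The share of all genes called higher with age was 3.74% for HSCs, then 4.71%, 4.49%, 8.14% and 10.3% from MPP1 to MPP4, and 9.93%, 9.08% and 5.71% for GMPs, MEPs and CLPs. The share called lower was 1.66%, 2.09%, 3.31%, 5.79%, 6.27%, 8.97%, 11.7% and 4.73% in the same order. Proteasome genes were thus called higher at 6.0% in HSCs, close to the background, and at 22.0%, 44.0%, 62.0% and 74.0% in MPP1 to MPP4. In GMPs 30.0% were called lower, above the background of 8.97%, and 4.0% higher, below its 9.93%. The CLP shares of 6.0% in each direction lay near the background. Beside the 0 genes lower in HSCs, MPP1, MPP2, MPP3 and MPP4, an unadjusted p under 0.05 found 0, 0, 0, 0 and 1 lower genes, and DESeq2 at the same adjusted threshold found 0 in each.

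**Figure D1:**
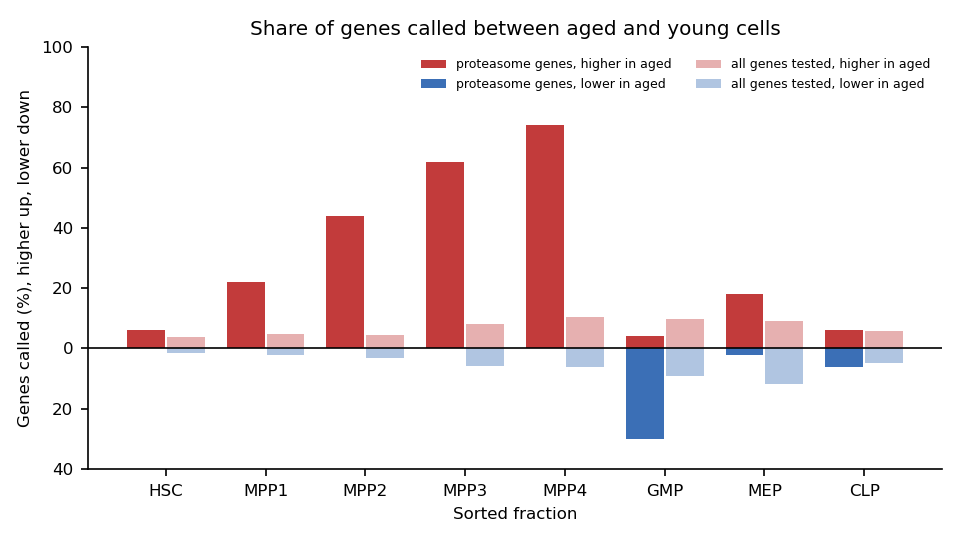
Share of genes called higher (upward bars) or lower (downward bars) in aged cells, in percent, for the 50 proteasome genes and for all 14154 genes tested, by sorted fraction. The bar for higher proteasome genes grows from 6.0% in HSCs to 74.0% in MPP4, and GMPs show the largest lower share, 30.0%.

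The median log2 fold change over the 50 genes was 0.16 in HSCs and 0.27, 0.33, 0.35 and 0.42 from MPP1 to MPP4, while the median over all genes lay between -0.04 and 0.02. In HSCs and MPP1 to MPP4, 42, 48, 48, 47 and 48 of the 50 genes had a positive fold change. The medians were -0.20 in GMPs and -0.13 in CLPs, with 15 and 10 genes positive, and 0.07 in MEPs, with 33 positive. Without the filter on low counts the MEP median was -0.01, so no direction is given for the MEP set as a whole. When offsets corrected GC content and gene length, GMPs had 2 genes higher and 8 lower, with a median of -0.08, and CLPs 5 higher and 1 lower.

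Marker sums of other cell types moved with age in the fractions with the most calls. In MPP2 the neutrophil genes went from 651 and 691 to 249 and 255 CPM, the macrophage genes from 60.9 and 66.6 to 25.4 and 26.4 and the erythroid genes from 88.4 and 89.2 to 15.9 and 18.1. In MPP3 the macrophage genes went from 51.8 and 56.4 to 16.3 and 16.7 CPM, the erythroid genes from 90.9 and 91.7 to 20.8 and 18.00 and the plasma cell genes from 92.2 and 93.9 to 51.5 and 48.5. In MPP4 the sums were lower in aged libraries for plasma cell genes (159 and 169.6 against 51.3 and 48.00 CPM), macrophage genes (23.5 and 25.5 against 7.12 and 6.72) and erythroid genes (21.5 and 22.2 against 7.34 and 7.37), and were 27.8 and 34.8 in young and 35.2 and 36.9 in aged libraries for neutrophil genes. Other sums went up with age. In MPP2 the plasma cell genes went from 54.3 and 57.9 to 78.9 and 84.2 CPM. The T and NK cell list, nearly all Nkg7, went from 138 and 153 to 171 and 175 CPM in MPP2. It went from 158 and 170 to 207 and 211 in MPP3 and from 94.6 and 111 to 157 and 160 in MPP4. The MPP4 fall in plasma cell genes was mostly Sdc1, between 153 and 161 CPM in young and between 47.6 and 50.7 in aged libraries. The part of these shifts in the rise of the proteasome genes was not tested.

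**Figure D2:**
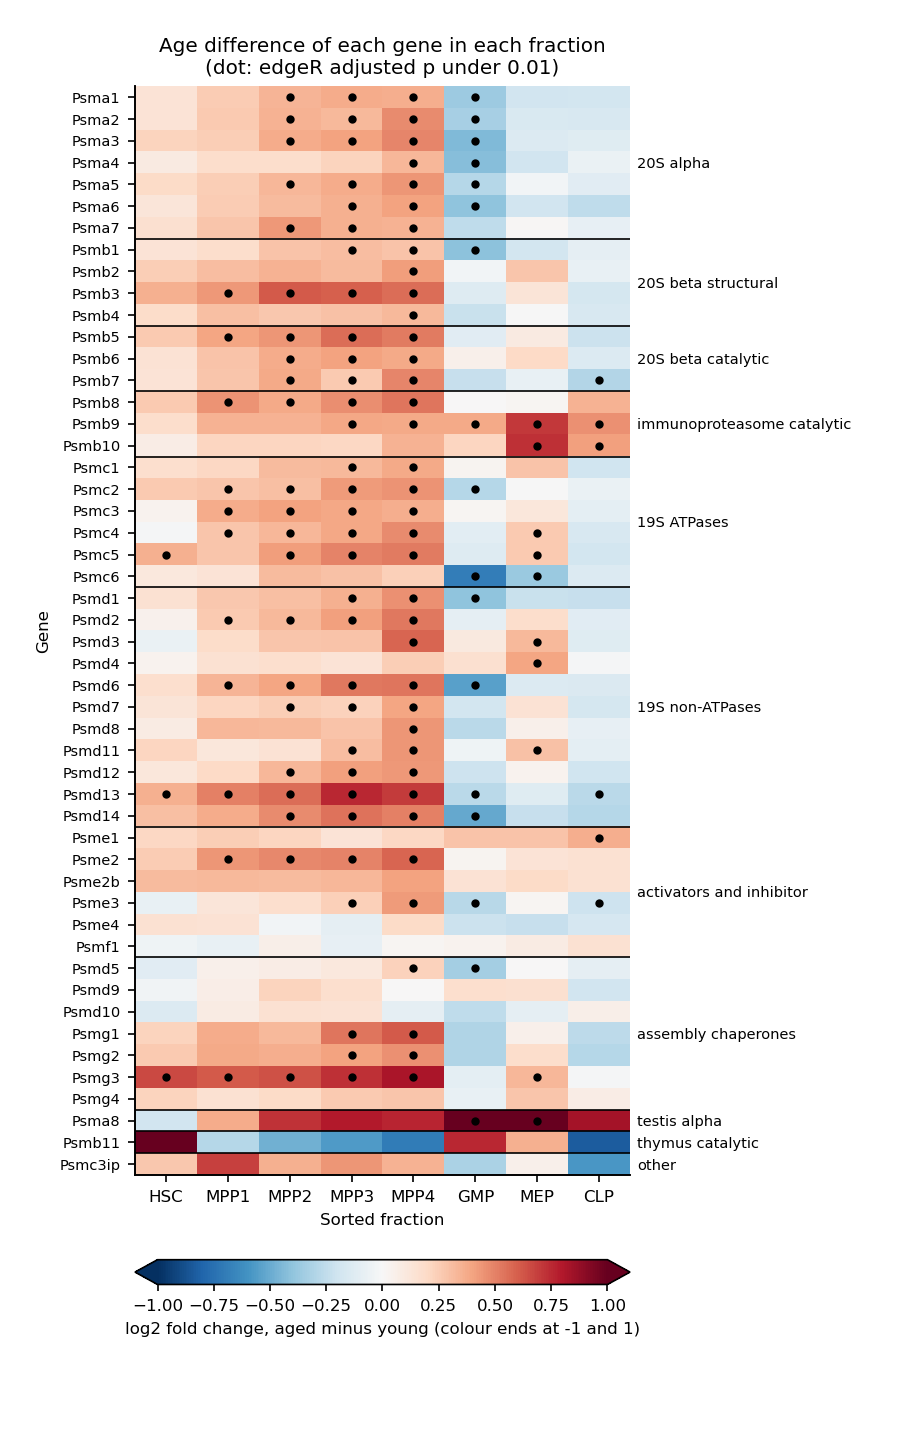
Log2 fold change between aged and young cells (color, from blue for lower to red for higher, ends at -1 and 1) for each proteasome gene (rows, ordered by role) in each sorted fraction (columns). Dots mark genes called at an edgeR adjusted p under 0.01. MPP2 to MPP4 are red in nearly every row of the core and regulatory particle, and GMPs are blue in the 20S alpha rows.

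With 2 libraries a group, counts of calls changed when 1 library was left out. Leaving a library out also lowers the power of the test, and that loss was not told apart from dependence on a particular library. In MPP1 the 11 calls became 2 without young replicate 1, 4 without young replicate 2, 6 without aged replicate 1 and 5 without aged replicate 2. In MPP2 the 22 calls became 4, 7, 8 and 10 in the same order. The 31 calls of MPP3 became 20 without young replicate 2, and the 37 of MPP4 became 15 without young replicate 1. For GMPs, 17 calls became 9 without young replicate 1 and 8 without aged replicate 1. The 10 calls in MEPs became 2, 4, 2 and 4 without young replicate 1, young replicate 2, aged replicate 1 and aged replicate 2, and the 6 in CLPs became 0, 0, 1 and 3. The lone remaining library of a group was assumed to vary like the other groups. Ages are said below to be separate, or not to overlap, when all libraries of one lie above those of the other. With 2 libraries each this can easily happen without a difference, and its share over all genes is not given here.

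Across the 8 fractions, 42 of the 50 genes were called in at least 1 fraction, against 46.2% of all genes tested. Of these, 26 were called only higher, 1 only lower, and 15 in both directions in different fractions, which is 30.0% of the 50 genes against 9.5% of all genes. The 5 genes higher in at least 5 fractions were Psmb9, Psmc4, Psmc5, Psmd13 and Psmg3. For genes called only higher, only lower or higher in at least 5 fractions, the share over all genes is not given here. Those counts are therefore not set against a background. The 15 genes with both directions were Psma1 to Psma6, Psmb1, Psmb7, Psmc2, Psmd1, Psmd5, Psmd6, Psmd13, Psmd14 and Psme3. Psmb7 was lower in CLPs, Psmd13 and Psme3 in GMPs and CLPs, and the other 12 in GMPs.

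The 7 alpha subunits, which form the outer rings of the core and its gated entrance, went in one direction within most fractions. None was called in HSCs or MPP1, while 5, 6 and 7 rose in MPP2, MPP3 and MPP4, and 6 fell in GMPs, all but Psma7 (log2 fold change -0.25 ± 0.09, ± SE here and throughout, adjusted p = 0.043). Their median log2 fold change was 0.14 in HSCs, went from 0.25 over 0.34 and 0.36 to 0.40 along MPP1 to MPP4, and was -0.37 in GMPs. No alpha subunit was called in MEPs or CLPs, where the medians were -0.15 and -0.12.

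Psma3 illustrates the pattern. Its levels in MPP4 were 187 and 224 CPM in the young libraries and 296 and 279 CPM in the aged libraries, which do not overlap, a log2 fold change of 0.49 ± 0.09 (adjusted p = 2.5e-04). In GMPs the young libraries held 395 and 387 CPM and the aged libraries 277 and 299, again without overlap (-0.44 ± 0.09, adjusted p = 5.6e-04). Aged GMPs thus lay close to aged MPP4, although young GMPs had been well above young MPP4. Psma4 showed the same fall in GMPs, from 306 and 296 to 214 and 235 CPM (-0.42 ± 0.08, adjusted p = 2.4e-04), and among the alpha genes it had the smallest rise in MPP4 (0.33). The other falls in GMPs were -0.37 for Psma1, -0.33 for Psma2, -0.28 for Psma5 and -0.41 for Psma6. With GC and length offsets the Psma2 value in GMPs turned to 0.06 and was not called. Psma4 shares 114 of 2370 exonic bases with a gene on the other strand, AY074887, and the strand setting of the counting is not stated in the sources used here.

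Psma8, an alpha subunit known from the testis, was scarce, and it was called higher in 2 fractions in which no other alpha gene rose. Young GMPs held 3.06 and 5.53 CPM and aged GMPs 14.8 and 10.8, a log2 fold change of 1.57 ± 0.25 (adjusted p = 8.2e-05). In MEPs it rose from 5.63 and 4.74 to 12.6 and 8.43 CPM (1.02 ± 0.25, adjusted p = 0.0034). The groups did not overlap in either fraction. In MPP2, MPP3 and MPP4 the differences of 0.72, 0.79 and 0.76 were not called, with adjusted p-values of 0.034, 0.015 and 0.024.

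Among the 4 structural beta subunits, Psmb1 to Psmb4, which line the inner rings without a proteolytic site, 1, 1, 2 and 4 rose from MPP1 to MPP4, and 1 fell in GMPs. Psmb3 was the one that rose in all 4 MPP fractions, with log2 fold changes of 0.43 ± 0.10, 0.61 ± 0.10, 0.60 ± 0.10 and 0.56 ± 0.10 and adjusted p-values of 0.0057, 2.9e-04, 1.7e-04 and 2.3e-04. In MPP2 its libraries held 104 and 111 CPM at the young age and 165 and 164 at the aged. In aged HSCs the same gene read 0.36 with an adjusted p of 0.024. Psmb1 was the subunit that fell in GMPs, from 351 and 332 to 248 and 266 CPM (-0.41 ± 0.08, adjusted p = 3.3e-04). The remaining structural subunits, Psmb2 and Psmb4, were called in MPP4 only among the 8 fractions, at 0.42 and 0.32.

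The catalytic beta subunits carry the protease activity, Psmb5 (chr14:54614119-54618022, minus strand, mm10) the chymotrypsin-like, Psmb6 (chr11:70525367-70527858, plus strand) the caspase-like and Psmb7 (chr2:38588036-38644087, minus strand) the trypsin-like. All 3 rose in MPP2, MPP3 and MPP4, and Psmb5 also in MPP1. Psmb5 was at 125 and 119 CPM in young MPP3 and 186 and 174 CPM in aged MPP3 (0.56 ± 0.08, adjusted p = 3.4e-05), and the fold changes in MPP1, MPP2 and MPP4 were 0.40, 0.44 and 0.52. Psmb6 went from 154 and 157 CPM in young to 202 and 208 CPM in aged MPP3 (0.40 ± 0.08, adjusted p = 0.0012), with 0.37 in MPP2 and 0.38 in MPP4. Young and aged libraries were separate for both genes in all 4 MPP fractions.

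Psmb7 showed its largest rise in MPP4, from 86.7 and 96.6 to 127 and 129 CPM (0.48 ± 0.07, adjusted p = 2.8e-05), after 0.38 in MPP2 and 0.26 in MPP3. It was also the catalytic subunit called lower in CLPs, from 124 and 129 to 102 and 106 CPM (-0.29 ± 0.07, adjusted p = 0.0059). None of the 3 was called in HSCs, GMPs or MEPs. Their values in HSCs were 0.26, 0.15 and 0.14, in GMPs -0.11, 0.05 and -0.23, and in MEPs 0.09, 0.20 and -0.08. Psmb7 shares 405 of its 3421 exonic bases with Nek6 on the other strand, and 109 of the 899 bases of Psmb5 hold the microRNA gene Mir686.

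The immunoproteasome subunits Psmb8 (chr17:34197721-34201454, plus strand), Psmb9 (chr17:34181987-34187764, minus strand) and Psmb10 (chr8:105935735-105938444, minus strand) take the places of Psmb5, Psmb6 and Psmb7. Psmb8 rose in all 4 MPP fractions, by 0.45 ± 0.10, 0.38 ± 0.10, 0.47 ± 0.10 and 0.54 ± 0.10, with adjusted p-values of 0.0031, 0.0094, 0.0013 and 2.8e-04. In MPP4 its libraries held 406 and 481 CPM (young) and 643 and 642 CPM (aged). Its GMP and MEP values were 0.00 and 0.02, where the groups overlapped, and for CLPs it read 0.35 with an adjusted p of 0.014.

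Psmb9 was called higher in MPP3, MPP4, GMPs, MEPs and CLPs, at 0.39, 0.38, 0.38, 0.71 and 0.46. The MEP libraries held 57.6 and 66.3 CPM in young and 95.8 and 106 CPM in aged cells (0.71 ± 0.10, adjusted p = 9.5e-06), and the CLP libraries 226 and 226 CPM in young and 287 and 334 CPM in aged cells (0.46 ± 0.09, adjusted p = 0.0013). Psmb9 and Tap1, which lie head to head, share 212 of the 3660 exonic bases of Psmb9 on opposite strands. Psmb10 was called in MEPs, from 65.9 and 73.8 to 113 and 118 CPM (0.73 ± 0.10, adjusted p = 1.2e-05), and in CLPs, from 143 and 147 to 204 and 181 CPM (0.41 ± 0.10, adjusted p = 0.0058). In HSCs the 3 subunits were not called, at 0.26, 0.18 and 0.07, and their young and aged libraries overlapped.

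**Figure D3:**
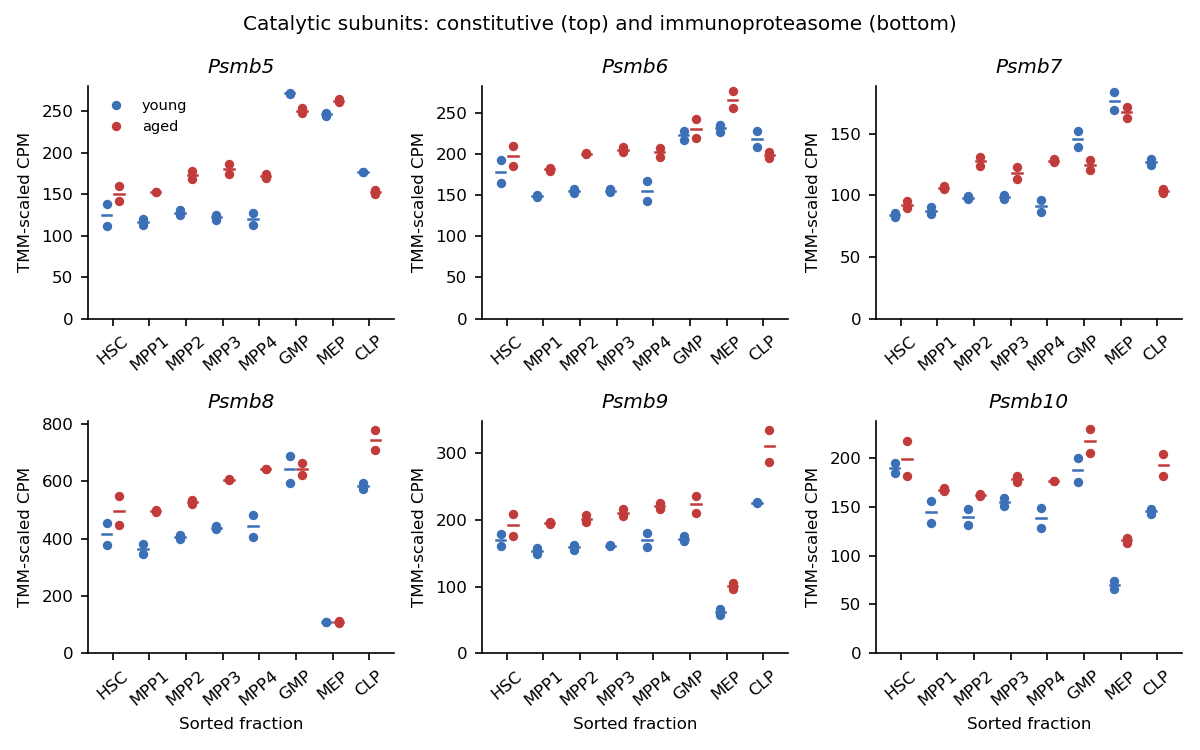
TMM-scaled CPM of the constitutive catalytic subunits (top row) and the immunoproteasome subunits (bottom row) in each library, by sorted fraction, young in blue and aged in red, with lines at the mean of the 2 libraries. Axes start at 0 and differ between panels. Psmb8 is at 109 and 108 CPM in young and 105 and 114 CPM in aged MEPs, and Psmb9 and Psmb10 separate by age in MEPs and CLPs.

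Stretches just upstream of the start site of these genes are shown because different factors are known to act there. These are the CNC factors Nfe2l1 and Nfe2l2 on constitutive subunits and the IRF and STAT factors on inducible ones. Any part of such factors in the age differences was not tested. RefSeq windows of 300 bases on GRCm38.p6 existed for 42 of the 50 genes. Capitals mark a match, on either strand, to TGANNNNGC (CNC factors), GAAANNGAA (IRF factors), TTCNNNGAA (STAT factors), CCAAT (NF-Y) or CCGGAAG (ETS factors). GAAANNGAA and TTCNNNGAA share the letters GAA, so one stretch can match both. Psmb5 lies at chr14:54617996-54618075 on the minus strand, Psmb6 at chr11:70525277-70525356 on the plus strand, Psmb8 at chr17:34198085-34198194 on the plus strand, Psmb9 at chr17:34187331-34187410 on the minus strand and Psmb10 at chr8:105938393-105938472 on the minus strand, each read 5′ to 3′ and ending at the base before the RefSeq start site. For Psmb5, Psmb8, Psmb9 and Psmb10 part or all of the stretch lies inside the gene as GENCODE M21 has it, since other transcripts start further upstream.
Psmb5: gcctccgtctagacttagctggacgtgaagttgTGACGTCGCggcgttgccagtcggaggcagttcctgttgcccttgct
Psmb6: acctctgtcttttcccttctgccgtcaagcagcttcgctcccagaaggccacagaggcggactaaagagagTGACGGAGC
Psmb8: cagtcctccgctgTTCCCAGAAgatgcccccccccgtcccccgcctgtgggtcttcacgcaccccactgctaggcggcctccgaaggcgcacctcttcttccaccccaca
Psmb9: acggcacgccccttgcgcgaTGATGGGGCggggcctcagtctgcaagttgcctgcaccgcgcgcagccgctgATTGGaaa
Psmb10: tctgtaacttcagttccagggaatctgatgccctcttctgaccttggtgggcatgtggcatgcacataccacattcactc

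Psmb5, Psmb6 and Psmb9 each hold TGANNNNGC in the printed stretch, Psmb9 also holds the reverse complement of CCAAT, Psmb8 holds TTCNNNGAA, and Psmb10 holds none of the 5 motifs in its window. Over the 42 genes searched, TGANNNNGC occurred in 24 (57.1%). It occurred in 47.9% of the 10646 tested genes with a window and 45.0% of all 27025 genes with one. No chromosome was left out of these 2 background shares. GAAANNGAA occurred in 7 (16.7%, against 8.98% and 9.76%), TTCNNNGAA in 3 (7.14%, against 8.41% and 9.55%), CCAAT in 15 (35.7%, against 42.5% and 41.1%) and CCGGAAG in 15 (35.7%, against 18.8% and 9.93%). These matches describe letters only.

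The 6 ATPases of the 19S particle, Psmc1 to Psmc6, form the ring that unfolds substrates. With age 1 rose in HSCs and 3, 4, 5 and 5 from MPP1 to MPP4, while 2 fell in GMPs and MEPs had 2 higher and 1 lower. Psmc5 was higher in HSCs, MPP2, MPP3, MPP4 and MEPs. Its HSC libraries held 91.5 and 83.2 CPM in young and 111 and 112 CPM in aged cells, without overlap (0.35 ± 0.07, adjusted p = 0.0031), and the other 4 values were 0.42, 0.50, 0.52 and 0.26. Psmc4 was higher in the 4 MPP fractions and in MEPs, at 0.28, 0.33, 0.39, 0.48 and 0.26, and read -0.01 in HSCs, with overlapping libraries.

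Psmc6 stood apart from the other ATPases. It was the single proteasome gene called only lower, in GMPs from 192 and 188 to 115 and 121 CPM (-0.69 ± 0.10, adjusted p = 4.1e-05) and in MEPs from 227 and 193 to 172 and 153 CPM (-0.37 ± 0.10, adjusted p = 0.0079). Libraries of the 2 ages did not overlap in either fraction. In MPP1 to MPP4 it read 0.14, 0.32, 0.29 and 0.24, none called. Psmc2 rose in all 4 MPP fractions, with 0.45 in MPP4 (adjusted p = 3.4e-05), and read -0.29 in GMPs (adjusted p = 0.002).

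The 11 non-ATPase subunits of the 19S particle include the scaffold Psmd1 and Psmd2, the ubiquitin receptor Psmd4 and the deubiquitinase Psmd14. Of these 1 rose with age in HSCs and 3, 6, 8 and 10 from MPP1 to MPP4, with 4 lower in GMPs, 3 higher in MEPs and 1 lower in CLPs. Psmd13 rose the most often and by the most. Its HSC libraries went from 98.99 and 96.7 to 118 and 132 CPM (0.35 ± 0.07, adjusted p = 0.0017) and its MPP3 libraries from 127 and 124 to 214 and 209 CPM (0.75 ± 0.07, adjusted p = 2.7e-07). The rises in MPP1, MPP2 and MPP4 were 0.51, 0.56 and 0.70. In GMPs it fell from 276 and 285 to 227 and 237 CPM (-0.27 ± 0.07, adjusted p = 0.0045), and in CLPs from 212 and 224 to 176 and 186 CPM (-0.27 ± 0.07, adjusted p = 0.0081). The gene shares 342 of its 3377 exonic bases with Sirt3 on the other strand.

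Psmd6 and Psmd14 gave the largest contrasts between MPPs and GMPs. Psmd6 rose in MPP4 from 90.4 and 106 to 142 and 142 CPM (0.54 ± 0.08, adjusted p = 3.5e-05) and fell in GMPs from 256 and 254 to 173 and 178 CPM (-0.54 ± 0.08, adjusted p = 2.6e-05). Psmd14 rose in MPP3 from 149.8 and 137 to 213 and 206 CPM (0.55 ± 0.11, adjusted p = 6.9e-04) and fell in GMPs from 296 and 278 to 195 and 208 CPM (-0.51 ± 0.11, adjusted p = 9.0e-04). Young and aged libraries were separate in each of these comparisons. Psmd1 had the same pair of directions, 0.46 in MPP4 and -0.41 in GMPs. Psmd3 rose in MPP4 (0.59 ± 0.09, adjusted p = 4.5e-05) and in MEPs (0.33), and Psmd4 was called in MEPs, from 273 and 277 to 371 and 352 CPM (0.40 ± 0.08, adjusted p = 9.2e-04), with 0.25 in MPP4 (adjusted p = 0.034). Psmd2, the most abundant of the group per kilobase of exon, rose in MPP1 to MPP4 by 0.26, 0.33, 0.41 and 0.52.

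Upstream stretches of 4 genes of the 19S particle are shown for the motif CCGGAAG, found in 15 of the 42 genes searched. Of the 4, 2 fell in aged GMPs and 2 did not pass the test there. Psmc6 lies at chr14:45329714-45329823 (plus strand), Psmd6 at chr14:14120946-14121025 (minus strand), Psmd12 at chr11:107479448-107479527 (plus strand) and Psmc1 at chr12:100110122-100110201 (plus strand), on GRCm38.p6, and capitals mark a match on either strand as above. Each stretch runs partly inside the gene as GENCODE M21 has it, and the CCGGAAG matches of Psmd12 and Psmc1 lie in that part.
Psmc6: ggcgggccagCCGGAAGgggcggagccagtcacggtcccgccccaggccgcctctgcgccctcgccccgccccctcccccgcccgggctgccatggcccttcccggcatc
Psmd6: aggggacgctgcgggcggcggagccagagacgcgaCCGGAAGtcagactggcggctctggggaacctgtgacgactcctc
Psmd12: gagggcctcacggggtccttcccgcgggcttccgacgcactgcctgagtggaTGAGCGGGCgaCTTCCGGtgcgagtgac
Psmc1: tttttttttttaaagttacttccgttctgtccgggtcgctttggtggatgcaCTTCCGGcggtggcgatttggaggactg

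All 4 stretches were chosen for CCGGAAG or its reverse complement, and Psmd12 also holds TGANNNNGC. Psmc6 and Psmd6 fell in aged GMPs, while Psmd12 (-0.21, adjusted p = 0.039) and Psmc1 (0.03) were not called there.

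Among the proteins that cap the core in place of the 19S particle, Psme1 and Psme2 form the interferon-inducible PA28 alpha-beta ring, Psme3 the nuclear PA28 gamma ring and Psme4 is PA200, while Psmf1 is the inhibitor PI31. Psme2 rose in the 4 MPP fractions, with 0.44, 0.48 and 0.50 for MPP1 to MPP3. In MPP4 it went from 134 and 146 to 215 and 202 CPM, without overlap (0.58 ± 0.08, adjusted p = 1.1e-05), whereas in HSCs, GMPs, MEPs and CLPs its values of 0.25, 0.02, 0.13 and 0.16 were not called. Its partner Psme1 was called in CLPs alone among the 8 fractions, from 296 and 296 to 384 and 378 CPM (0.37 ± 0.09, adjusted p = 0.0061), and read between 0.14 and 0.29 in the other 7.

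Psme3 moved in both directions. It rose in MPP3 (0.24 ± 0.05, adjusted p = 0.0024) and in MPP4, from 296 and 308 to 396 and 414 CPM (0.42 ± 0.05, adjusted p = 5.3e-06). It fell in GMPs from 475 and 505 to 404 and 405 CPM (-0.28 ± 0.05, adjusted p = 4.8e-04) and in CLPs from 371 and 370.3 to 331 and 309.8 CPM (-0.21 ± 0.05, adjusted p = 0.0078). Psme4 and Psmf1 were not called in any fraction, with values from -0.23 to 0.19 for Psme4 and from -0.08 to 0.15 for Psmf1. Psme2b, a close copy of Psme2 whose reads could be shared with it, was not called either and its values are uncertain.

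Of the 7 assembly chaperones, which bring core subunits (Psmg1 to Psmg4) or the ATPase ring (Psmd5, Psmd9, Psmd10) together before the particle closes, 1 rose in each of HSCs, MPP1 and MPP2, 3 in MPP3, 4 in MPP4 and 1 in MEPs, and 1 fell in GMPs. Psmg3, which pairs with Psmg4 in the assembly of the alpha ring, had the largest fold change of all called proteasome genes in HSCs, MPP1, MPP2 and MPP4. Its libraries held 17.97 and 19.03 CPM in young and 26.9 and 31.6 CPM in aged HSCs (0.66 ± 0.09, adjusted p = 6.4e-05), and 21.2 and 24.3 CPM in young and 39.8 and 40.3 CPM in aged MPP4 (0.82 ± 0.09, adjusted p = 1.3e-06). The ages did not overlap in HSCs or in any MPP fraction. Its other rises were 0.62, 0.64 and 0.73 for MPP1 to MPP3 and 0.33 for MEPs.

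Psmg4 was not called in any of the 8 fractions, at 0.23 in HSCs and 0.28 in MPP4. The other pair, Psmg1 and Psmg2, rose in MPP3 (0.53 and 0.40) and MPP4 (0.61 and 0.46). Psmg1 went from 47.6 and 55.1 to 80.1 and 76.5 CPM in MPP4 (adjusted p = 9.5e-05). Psmd5, a chaperone of the ATPase ring, rose in MPP4 (0.23, adjusted p = 0.0063) and fell in GMPs (-0.34, adjusted p = 2.3e-04), while Psmd9 and Psmd10 were not called in any of the 8 fractions.

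The rule on symbols also took in genes that are not part of the usual particle. Psmb11 is the catalytic subunit of the thymus and was low, with 1.94 and 2.48 CPM in young and 5.55 and 4.29 CPM in aged HSCs and an age difference of 1.14 ± 0.29 that was not called (adjusted p = 0.011). Psmc3ip is a recombination factor named for binding Psmc3 and is no subunit. It was not called with age in any fraction and shares 385 of 1818 exonic bases with Mlx on the other strand.

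The second comparison asked whether the age difference of a fraction itself differed from the mean age difference of MPP1 to MPP4, as a contrast in the same fit. For GMPs it did for 35 of 50 genes, all more negative, and for none in the positive direction, against 13.8% and 12.7% of all genes. For CLPs 34 genes were more negative and none more positive (background 12.3% and 10.3%), and for MEPs 23 were more negative and 1 more positive (14.7% and 10.2%). HSCs differed in 4 genes, 3 more negative and 1 more positive (1.1% and 1.91%). Beside the 0 more positive genes, an unadjusted p under 0.05 found 2 in GMPs and 1 in CLPs, and DESeq2 found 1 and 0. All 4 contrasts use the same MPP libraries.

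In GMPs the differences were largest for Psmd6 (-0.99 ± 0.09), Psmd14 (-0.98 ± 0.12), Psmc6 (-0.93 ± 0.12), Psmd13 (-0.90 ± 0.08) and Psma3 (-0.82 ± 0.10), with adjusted p-values between 3.4e-08 and 1.2e-06. Psmb5 (-0.59), Psmb7 (-0.58), Psmb8 (-0.45), Psme2 (-0.47) and Psme3 (-0.51) were also called. Psmb9 (0.01), Psmb10 (-0.03), Psme1 (0.08), Psme4 (-0.27) and Psmf1 (0.05) were not, nor was Psmb6 (-0.31, adjusted p = 0.012). Neutrophil genes summed lower in aged GMPs, as given above, and the T and NK cell list summed to 736 and 686 CPM in young and 984 and 1056 CPM in aged GMPs with 3 of its 4 genes at 0. Their part in the result was not tested.

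In CLPs the largest differences belonged to Psmc3ip (-1.04), Psmd13 (-0.90), Psmd14 (-0.76), Psmb3 (-0.73) and Psmg1 (-0.72). Of the catalytic genes Psmb5 (-0.69 ± 0.09), Psmb6 (-0.49 ± 0.09) and Psmb7 (-0.64 ± 0.08) were called, with adjusted p-values of 4.3e-06, 2.8e-04 and 2.4e-06. Psmb8 (-0.11), Psmb9 (0.09) and Psmb10 (0.16) were not, and the difference between the pairs itself was not tested. Psme2 (-0.34) and Psme3 (-0.45) were called as well. Aged CLPs differed from young CLPs in the summed B cell and neutrophil genes given above, in macrophage genes (76.9 and 88.5 against 1.70 and 1.26 CPM), in megakaryocyte genes (37.2 and 34.9 against 99.7 and 149 CPM) and in Ly6a, which encodes Sca-1, between 34.4 and 35.9 CPM in young and between 207 and 221 CPM in aged libraries. The part of these shifts was not tested.

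In MEPs the more negative genes were led by Psmd13 (-0.75), Psmd14 (-0.70), Psmc6 (-0.62), Psmd6 (-0.58) and Psmd1 (-0.57), and included Psmb5 (-0.39), Psmb7 (-0.43), Psmb8 (-0.44), Psme2 (-0.36) and Psme3 (-0.21). Psmb10 was the 1 gene that was more positive (0.48 ± 0.11, adjusted p = 0.002). Psmb9 read 0.34 without passing (adjusted p = 0.016). The B cell and erythroid genes that differed with age in MEPs, as given above, moved with these values and their part was not tested.

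In HSCs the neutrophil genes were higher with age, and their part was not tested. The age difference in HSCs lay below the mean of the MPPs for Psmc4 (-0.38 ± 0.08, adjusted p = 0.0036) and Psmd2 (-0.34 ± 0.06, adjusted p = 0.0012). The same held for Psme3 (-0.31 ± 0.06, adjusted p = 0.0024). Psmb11 was the 1 gene in the other direction (1.65 ± 0.32, adjusted p = 0.003), at the low levels given above. An unadjusted p under 0.05 found 20 genes more negative, and DESeq2 called 5. This count of 4 became 2 without young HSC replicate 2, 7 without young MPP3 replicate 2, 9 without young MPP4 replicate 2, 7 without aged HSC replicate 2, 8 without aged MPP3 replicate 1, 7 without aged MPP3 replicate 2 and 7 without aged MPP4 replicate 1.

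Within a library, the count ratio of each immunoproteasome subunit to the constitutive subunit it replaces does not depend on depth or scaling, and it is given without a test. Psmb8 over Psmb5 in CLPs was 3.25 and 3.36 in young and 4.73 and 5.01 in aged libraries, a log2 change of 0.56. In MEPs the same ratio was 0.446 and 0.436 in young and 0.399 and 0.439 in aged libraries, with overlapping ages. In GMPs it was 2.53 and 2.20 in young and 2.52 and 2.62 in aged libraries, also overlapping. The ratios of the other pairs were higher in aged libraries of all 3 committed fractions.

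Psmb9 over Psmb6 went from 1.09 and 0.988 to 1.48 and 1.65 in CLPs (0.59), from 0.768 and 0.774 to 0.961 and 0.973 in GMPs (0.33) and from 0.254 and 0.282 to 0.347 and 0.415 in MEPs (0.50). For Psmb10 over Psmb7 the GMP ratio went from 1.31 and 1.25 to 1.70 and 1.79 (0.44), the MEP ratio from 0.389 and 0.401 to 0.657 and 0.726 (0.80) and the CLP ratio from 1.15 and 1.14 to 2.00 and 1.72 (0.70). Young and aged libraries did not overlap in these 6 cases. In HSCs and the MPPs the log2 changes of the 3 ratios lay between -0.16 and 0.07. Some of these small changes also came without overlap of the ages. They were Psmb8 over Psmb5 in MPP1, MPP2 and MPP3 (0.06, -0.06 and -0.10) and Psmb9 over Psmb6 in MPP1 (0.07). Psmb10 over Psmb7 was lower without overlap in aged MPP2 and MPP4 (-0.16 and -0.13).

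**Figure D4:**
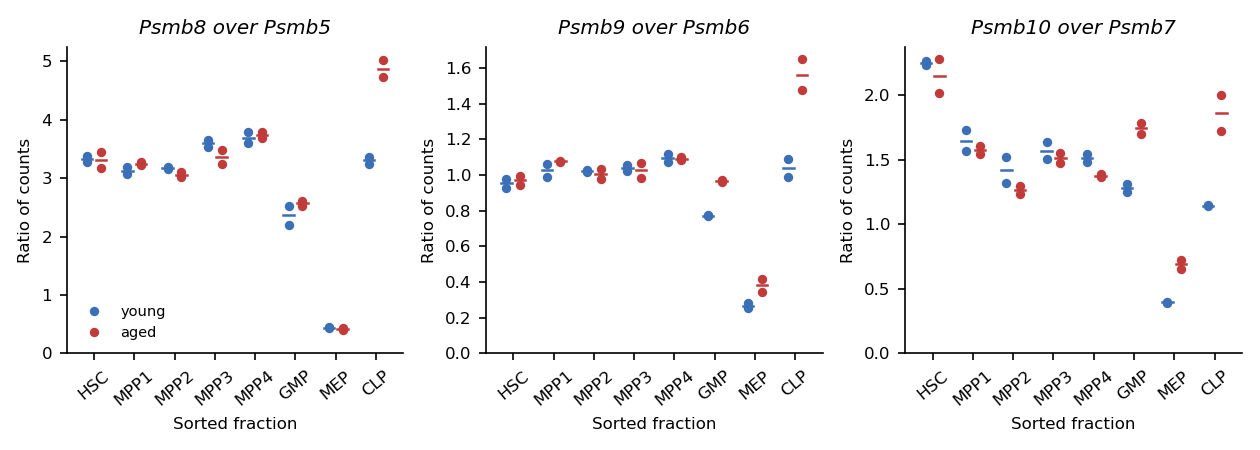
Count ratio of Psmb8 to Psmb5, Psmb9 to Psmb6 and Psmb10 to Psmb7 in each library, by sorted fraction, young in blue and aged in red. In HSCs and MPPs the ages lie close together but do not always overlap. Psmb10 over Psmb7 reaches 2.00 and 1.72 in aged CLPs from 1.15 and 1.14 in young CLPs.

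Pathway genes outside the symbol rule gave a separate picture. Of 11 antigen presentation and interferon genes listed beside the immunoproteasome, none was called with age in HSCs or MPP2, 1 rose in MPP1, 1 rose and 1 fell in MPP3, 3 rose and 1 fell in MPP4, and 7 rose in GMPs, 9 in MEPs (with 1 lower) and 10 in CLPs. These last are 63.6%, 81.8% and 90.9% of the list, against 9.93%, 9.08% and 5.71% of all genes. Nlrc5, the transactivator of MHC class I genes and of the immunoproteasome, rose by 2.03 ± 0.16 in GMPs (adjusted p = 2.6e-08) and 2.17 ± 0.17 in MEPs (adjusted p = 4.0e-09). H2-K1, a class I heavy chain, rose by 0.88 in CLPs. Irf1, an interferon-induced factor, rose in GMPs (0.83), MEPs (1.31) and CLPs (0.96) and fell in MPP4 (-0.76). The peptide transporter gene Tap1 rose in MPP1 (0.43). Irf8 fell in MPP3 (-1.19) and in MEPs (-3.41, from a mean of 23.4 to 2.18 CPM). Marker sums of other cell types also moved with age in both fractions, as given above. Their part in the Irf8 values was not tested. Against the mean of the MPPs the age difference was more positive for Nlrc5 in GMPs (1.91) and MEPs (2.05), for Irf1 in GMPs (1.05), MEPs (1.54) and CLPs (1.19), and for H2-K1 in CLPs (0.80), and more negative for Irf8 in MEPs (-3.17).

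Among 21 partners and regulators of the proteasome, 1 rose in HSCs and 1, 2, 4 and 6 from MPP1 to MPP4, and 1 fell in MPP4. GMPs had 2 higher and 5 lower, MEPs 3 higher and 2 lower, and CLPs 3 lower. Of all genes, 4.49%, 8.14% and 9.08% were called higher in MPP2, MPP3 and MEPs. The share of all genes called lower was 6.27% in MPP4 and 8.97%, 11.7% and 4.73% in GMPs, MEPs and CLPs. The 4.76% higher in HSCs and in MPP1 and the 9.52% higher in GMPs were near the 3.74%, 4.71% and 9.93% of all genes, and the 28.6% higher in MPP4 was above its 10.3%. Uchl5, a deubiquitinase bound to the 19S particle, was the gene called in HSCs and rose in all 4 MPP fractions, at 0.47, 0.47, 0.53, 0.57 and 0.67 from HSCs to MPP4. Usp14, a further deubiquitinase bound to the 19S particle, rose in MPP2 (0.30), the shuttle Rad23b in MPP3 (0.42), and Zfand5 fell in MPP4 (-0.57). Nfe2l1, the CNC factor that drives constitutive subunits when the proteasome is impaired, rose in GMPs (0.93 ± 0.11, adjusted p = 2.3e-06), where 15 proteasome genes fell, with an age difference 1.05 above the mean of the MPPs. Zfand5 was the 1 pathway gene called for HSCs in that contrast (0.51). Of 5 ubiquitin and ubiquitin-activation genes, Uba1 rose in MPP4 (0.29) and Uba6 fell in MEPs (-0.82).

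The third comparison set each young fraction against young HSCs, to place the age changes beside those of differentiation. Proteasome genes were higher in the committed fractions, with 40 of 50 higher and 3 lower in GMPs (31.8% and 32.8% of all genes), 40 higher and 6 lower in MEPs (29.7% and 39.0%) and 36 higher and 5 lower in CLPs (29.2% and 28.1%). Among the MPPs, 4 were higher and 2 lower in MPP1 (9.1% and 5.67%), 16 and 2 in MPP2 (17.5% and 16.1%), 15 and 1 in MPP3 (17.5% and 12.8%), and 10 and 3 in MPP4 (18.5% and 16.1%). The 10 higher genes of MPP4 are 20.0% of the 50, near the background. Median log2 fold changes over the 50 genes were -0.05 for MPP1 (0.04 with GC and length offsets), 0.05, 0.13 and 0.09 for MPP2 to MPP4, and 0.88, 1.07 and 0.49 for GMPs, MEPs and CLPs. All 7 contrasts share the young HSC libraries. With library totals and no TMM factors GMPs had 34 genes higher and 8 lower and MPP2 had 14 higher and 4 lower. The MPP1 count of 6 became 1 without young HSC replicate 2, 2 without young MPP1 replicate 1 and 3 without young MPP1 replicate 2, the MPP2 count of 18 became 10 without young MPP2 replicate 2, and the MPP3 count of 16 became 10, 9 and 9 without young HSC replicate 1, young HSC replicate 2 and young MPP3 replicate 2.

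**Figure D5:**
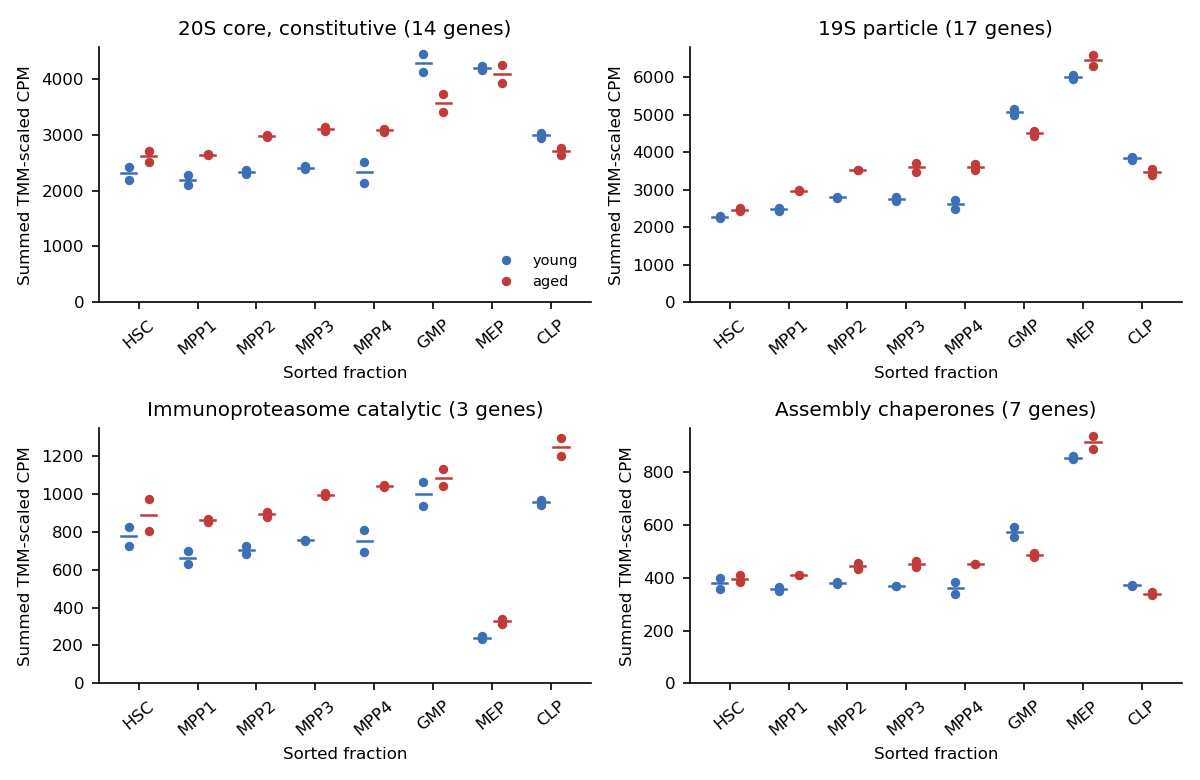
Summed TMM-scaled CPM of the 14 constitutive 20S genes, the 17 genes of the 19S particle, the 3 immunoproteasome genes and the 7 assembly chaperones in each library, by sorted fraction, young in blue and aged in red, with lines at the mean of 2 libraries. Axes start at 0. Young GMPs reach 4449 and 4126 CPM of 20S genes against 2189 and 2429 in young HSCs, and aged GMPs 3406 and 3718.

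Summed over the 14 constitutive 20S genes, young HSCs held 2189 and 2429 CPM, young MPP4 2131 and 2519, young GMPs 4449 and 4126, young MEPs 4153 and 4227 and young CLPs 2948 and 3033. Aged HSCs held 2517 and 2705 CPM, aged MPP4 3109 and 3050.5, aged GMPs 3406 and 3718, aged MEPs 4248 and 3922 and aged CLPs 2638 and 2768. The 17 genes of the 19S particle summed to 2236 and 2314 CPM in young HSCs and 5151 and 5002 in young GMPs, and to 2426 and 2523 in aged HSCs and 4445 and 4579 in aged GMPs. In MPP4 the 19S sum was 2488 and 2741 in young and 3529.7 and 3686 in aged libraries. On the means, the gap between MPP4 and GMPs was narrower in aged than in young libraries for both sums.

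The genes highest in committed cells relative to young HSCs, beside Psmc3ip (2.46 in GMPs, 2.08 in MEPs, 2.01 in CLPs), included the chaperone Psmg3 (1.76 and 1.96 in GMPs and MEPs), Psmd6 (1.56 and 1.77), Psmd14 (1.57 in GMPs), Psmc2 (1.98 in MEPs) and Psmd7 (1.62 in MEPs). Psmd13 was 1.52 in GMPs and 1.16 in CLPs, and Psmc4 was 1.19 in CLPs. CLPs also showed Psmb11 (1.35) and Psme2b (1.34), both uncertain for low counts or a close copy. Lower in all 3 was Psma8 (-2.03, -1.76 and -3.16), and Psmb11 was lower in GMPs (-1.58) and MEPs (-1.28). Smaller falls in CLPs were Psmd5 (-0.39) and Psmg4 (-0.36).

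All 3 immunoproteasome genes were lower in young MEPs than in young HSCs. Psmb8 fell from 378 and 453 CPM in young HSCs to 109 and 108 CPM in young MEPs (-1.93 ± 0.10, adjusted p = 1.1e-13), Psmb9 from 161 and 179 to 57.6 and 66.3 CPM (-1.46 ± 0.10, adjusted p = 7.0e-12) and Psmb10 from 184 and 195 to 65.9 and 73.8 CPM (-1.44 ± 0.10, adjusted p = 2.2e-11). For GMPs the 3 genes read 0.63, 0.01 and -0.02, and for CLPs 0.49, 0.41 and -0.39. The constitutive Psmb5, Psmb6 and Psmb7 were called higher in all 3 committed fractions, at 0.98, 0.37 and 1.07 in MEPs, 1.12, 0.32 and 0.79 in GMPs, and 0.50, 0.29 and 0.59 in CLPs, though Psmb6 in GMPs turned to -0.10 when library totals were used without TMM. Psme3 was higher in the 3 as well (1.01, 1.35 and 0.61 in GMPs, MEPs and CLPs), Psme2 in GMPs (0.83) and CLPs (0.79), and Psme4 was not called in any of the 7 contrasts. Psme1 (-0.71) was lower in MEPs, and the inhibitor Psmf1 was 1.08 there but -0.45 in GMPs and -0.39 in CLPs.

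Within the MPPs the differences from young HSCs were small. Psmc3ip led in MPP1 to MPP4, at 0.92, 1.44, 1.42 and 1.48, and Psmd1 was called in each as well (0.37, 0.59, 0.56 and 0.45). Psmd14 was 0.57, 0.57 and 0.58 in MPP2, MPP3 and MPP4, and Psmc6 was 0.44 and 0.52 in MPP3 and MPP4, where Psme2b read 0.46. Psme3 was higher in all 4 (0.28, 0.45, 0.43 and 0.31), Psmd2 in MPP1 (0.21), and Psmd13 (0.53) and Psmg3 (0.46) in MPP2. Lower genes were Psmb10 (-0.39, -0.44 and -0.45 in MPP1, MPP2 and MPP4), Psmf1 (-0.49, -0.41 and -0.44 in MPP2, MPP3 and MPP4), Psmg4 in MPP1 (-0.45) and Psma8 in MPP4 (-1.56).

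Several pathway genes differed from young HSCs by more than any subunit. Irf8 was 6.15 in GMPs and 7.70 in CLPs relative to young HSCs. Nlrc5 was -2.84 in GMPs and -3.26 in MEPs, and Irf1 was -3.52 in MEPs. Ubqln2, a ubiquitin shuttle, fell in GMPs (-2.30), MEPs (-2.72) and CLPs (-1.63). Uchl5 was higher in every MPP fraction (0.64, 1.02, 1.09 and 0.96) and in CLPs (1.21), and Ddi2, the protease that activates Nfe2l1, in MPP3 (0.67) and MPP4 (0.97). Irf8 was already higher in MPP2 to MPP4 (0.80, 2.23 and 2.19). The class I gene H2-D1 fell in MPP1 (-0.48) and MPP2 (-0.76).

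Levels can be compared between genes only per length, here as the mean over the 16 groups of TMM-scaled CPM per kilobase of exon. By role, the lowest and highest were Psma2 at 58.7 and Psma6 at 189.7 among the alpha subunits, Psmb1 at 52.7 and Psmb2 at 188 among the structural beta subunits, and Psmb7 at 34.3 and Psmb5 at 195 among the catalytic ones. Psmb9 was at 49.98 and Psmb8 at 142, Psmc6 at 32.8 and Psmc5 at 117, and Psmd11 at 28.5 and Psmd2 at 116 among the immunoproteasome subunits, ATPases and non-ATPases. Psme4 was at 4.67 and Psme1 at 129 among activators, and Psmd9 at 7.88 and Psmg1 at 53.9 among chaperones. Psma8 stood at 4.63, Psmb11 at 0.465 and Psmc3ip at 12.8. The exon length is the union over all annotated transcripts, so subunits of 1 particle need not have equal values.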

How the data were processed

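Bulk RNA-seq of 32 libraries was deposited by the authors as 1 table of raw read counts per gene. Per the labels, reads were aligned to mm10 with TopHat2 2.0.13 and Bowtie2 2.1.0, and the strand setting of the counting is not given in the sources used here. A table of the same counts divided by DESeq2 size factors was also deposited, as were DESeq2 comparisons of aged with young cells (fold changes and p-values), and neither was used. The 27 rows with symbols that read as dates, 0.188% of counts, stayed in the library totals. Groups came from the labels. Counts were fitted with edgeR 4.0.16 (R 4.3.3) by its quasi-likelihood test on all 32 libraries, with TMM scaling and filterByExpr over the 16 groups, and called at a Benjamini-Hochberg adjusted p under 0.01 over 14154 genes in each of 19 contrasts. The script was tested on simulated data. Duplicate libraries were compared and none was identical. Exon lengths and positions came from GENCODE M21 (GRCm38) and promoter windows (250 bases before to 50 after the start) from RefSeq.

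Proteasome genes and pathway lists were chosen with earlier results of these data known. Named genes were the catalytic, immunoproteasome, activator and inhibitor genes, the 5 largest called changes per direction and comparison, genes called in 5 or more fractions or in opposite directions, the extremes per kilobase in each role, and the 3 largest called pathway genes per comparison, some of which are not reported here. Alternatives were an adjusted p under 0.05, DESeq2 1.42.0 as test or for size factors, no filter, fits of only the libraries compared, GC and length offsets, a replicate block and leaving out each library. Library totals without TMM were added after seeing the data.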

Additional observations from a re-analysis of the deposited data

Results flagged for a closer look

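Differences with age that themselves differed from the mean age difference of MPP1 to MPP4, by the interaction test of the same edgeR fit at an adjusted p under 0.01, are gathered here as log2 values, negative where the fraction rose less than the MPPs or fell. In HSCs 4 proteasome genes passed, Psmc4 (-0.38), Psmd2 (-0.34), Psme3 (-0.31) and Psmb11 (1.65). In GMPs 35 passed, among them Psma3 (-0.82), Psmb5 (-0.59), Psmb7 (-0.58), Psmb8 (-0.45), Psmc6 (-0.93), Psmd6 (-0.99), Psmd13 (-0.90), Psmd14 (-0.98), Psme2 (-0.47) and Psme3 (-0.51). In MEPs 24 passed, among them Psmb5 (-0.39), Psmb7 (-0.43), Psmb8 (-0.44), Psmb10 (0.48), Psmc6 (-0.62), Psmd1 (-0.57), Psmd6 (-0.58), Psmd13 (-0.75), Psmd14 (-0.70), Psme2 (-0.36) and Psme3 (-0.21). In CLPs 34 passed, among them Psmb3 (-0.73), Psmb5 (-0.69), Psmb6 (-0.49), Psmb7 (-0.64), Psmd13 (-0.90), Psmd14 (-0.76), Psme2 (-0.34), Psme3 (-0.45), Psmg1 (-0.72) and Psmc3ip (-1.04). The genes listed are those named by the rule for named genes. With 2 libraries a group, no group was large enough to be checked for a library that stands apart from the rest.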

How the results depend on the processing

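Counts of called proteasome genes are given here under each alternative that moved them by more than 1.5 times, and the cause was not tested. At an adjusted p under 0.05, HSCs had 8, MPP1 26, MPP2 36 and CLPs 12 (4 higher, 8 lower), the HSC interaction 9 and young MPP1 against HSCs 13. DESeq2 gave 8 in HSCs, 24 in MPP1, 16 in MEPs (11 higher, 5 lower) and 11 in young MPP1. Fits on only the libraries compared, which leave few residual degrees of freedom, gave 0 in HSCs, then 24, 37, 20 and 18 from MPP1 to MPP4, 7, 2 and 0 for GMPs, MEPs and CLPs, 3 in young MPP1 and 6 in young MPP4. Without the filter on low counts MEPs had 5. Offsets for GC content and gene length gave 17 in MPP1, 10 in GMPs, 7 in the HSC interaction and 20 in young MPP4. The same offsets with the replicate block gave 5, 18, 11, 7 and 20 in HSCs, MPP1, GMPs, the HSC interaction and young MPP4.

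Leaving out 1 library at a time gave 2 to 4 calls in HSCs, then 2 to 6, 4 to 10, 20 to 23 and 15 to 39 from MPP1 to MPP4, and 8 to 16, 2 to 4 and 0 to 3 for GMPs, MEPs and CLPs. The interactions ranged over 2 to 9 in HSCs, 30 to 38 in GMPs, 21 to 28 in MEPs and 31 to 37 in CLPs. Against young HSCs the ranges were 1 to 5, 10 to 13, 9 to 13 and 11 to 14 from MPP1 to MPP4, and 42 to 43, 45 to 46 and 33 to 39 for GMPs, MEPs and CLPs.

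Replicate numbers showed little pairing over all tested genes (correlations of same-numbered deviations from -0.0557 to 0.0704). The pairs were young with aged cells of a fraction, and young HSCs with each other young fraction. Other pairs were not compared. The summed CPM of the proteasome genes but Psmc3ip was lower in replicate 1 in every young fraction except GMPs. Replicates 1 and 2 held 6480 and 7330 CPM in young MPP4 and 12365.5 and 11734.8 in young GMPs. In aged fractions the order was mixed. With the number as a replicate block the age counts were 3 for HSCs, 15, 24, 31 and 38 from MPP1 to MPP4, and 18, 12 and 7 for GMPs, MEPs and CLPs. Of 218 named calls, 217 kept their side of the threshold under the block, 216 under DESeq2, 205 with DESeq2 size factors, 195 without the filter, 193 with library totals, 182 and 181 with the GC and length offsets with and without the block, and 164 in fits of only the libraries compared. Psma2 in GMPs reversed to 0.0566 with the offsets and 0.0534 with the offsets and the block, and Psmb6 in young GMPs against HSCs to -0.104 with library totals. Size factors moved the median of all genes by -0.114 in young GMPs against HSCs, and library totals by -0.422 there, by -0.187 in both young MEPs and young CLPs against HSCs and by 0.107 in the GMP interaction. At these depths Psmb11 had between 10 and 72 counts a library, so its values carry the most counting error.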
